A study of Mus musculus with 4 samples.

Results

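A group of 8 genes first known as transcripts enriched in embryonic stem cells was followed after knockdown of the long noncoding RNA Cyrano, which carries a site that pairs with the microRNA miR-7. They were chosen by name from the 23366 gene symbols counted: Dppa2, Dppa4, Dppa3, Dppa5a, Utf1, Fbxo15, Tcl1 and Eras. Dppa2 and Dppa4 lie on chromosome 16, Dppa3 on 6, Dppa5a on 9, Utf1 on 7, Fbxo15 on 18, Tcl1 on 12 and Eras on X. Polyadenylated RNA was read from R1 cells. This line of mouse embryonic stem cells, strain 129X1 x 129S1, was kept on gelatin in medium with serum, serum replacement and LIF, the cytokine that sustains self-renewal. The knockdown group was 2 libraries of cells transfected with a short hairpin RNA against Cyrano, and the control group was 2 libraries of cells transfected with a non-targeting hairpin. In both groups the hairpin was carried by pSicoR-Ef1a-mCh-Puro, and the cells that took it up were selected with puromycin or sorted by flow cytometry, with no clone named. The libraries are called biological replicates by the submitters. A p-value here weighs the difference between the groups against the spread of libraries within groups, and against no other spread.

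The 8 genes share a history more than a pathway, since they were picked as markers of undifferentiated mouse cells and later given separate roles. Dppa2 and Dppa4 are partner proteins with SAP domains that bind chromatin, keep bivalent promoters free of DNA methylation and help to start genes of the totipotent 2-cell state. Dppa3, also called Stella, protects the maternal genome from demethylation and restrains the methylation cofactor UHRF1, and Dppa5a, also called Esg1, has a KH domain of the kind that binds RNA. Utf1 is a chromatin-bound cofactor that limits Polycomb at bivalent genes, Fbxo15 is an F-box protein and a target of OCT4 and SOX2 that stem cells can do without, Tcl1 is a coactivator of the kinase AKT, and Eras is a Ras-like GTPase that signals to PI3 kinase without a stimulus.

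No library stood against its label. Cyrano, listed as 1700020I14Rik, had 3.99 and 3.16 CPM in the knockdown libraries against 24.8 and 15.2 CPM in the controls, where CPM is the read count per 1000000 gene counts, with library totals scaled by TMM factors (log2 fold change -2.48 ± 0.30, SE; edgeR adjusted p = 0.00702). Gene counts summed to 22321102 and 20761783 in the knockdown libraries and to 16854403 and 19138196 in the controls. Rn45s, the ribosomal RNA precursor, took 12.3% and 11.03% of them after knockdown and 17.5% and 15.9% in the controls. The stem cell markers Pou5f1, Sox2, Nanog, Zfp42, Esrrb, Klf4 and Tdgf1 summed to 3713 and 3730 CPM after knockdown, against 3904 and 4229 CPM in the controls, so the defining markers of the labelled cells were present in each library. Of 7 fibroblast markers, Col3a1, Postn, Dcn and Lum had no read in any library. The list summed to 49.3 and 22.1 CPM after knockdown, against 40.9 and 24.1 CPM in the controls. Most of this sum was Thy1, at 48.02 and 20.39 CPM against 38.02 and 21.55 CPM, and Col1a1 and Col1a2 were low in every library. Of 6 primitive endoderm markers (Gata4, Gata6, Sox17, Sox7, Pdgfra and Dab2), 5 did not overlap between the groups and were higher after knockdown, as were 22.3% of all tested genes. Summed over all 6, the level was 158 and 195 CPM against 98.0 and 116 CPM. EdgeR called none of the 6, and DESeq2 called Pdgfra and Gata4. Markers of trophectoderm summed to 26.4 and 26.8 CPM against 29.9 and 29.3 CPM, of primed epiblast to 271 and 202 CPM against 254 and 152 CPM, and of germ cells to 149 and 198 CPM against 185 and 200.2 CPM. Most of the primed epiblast sum was Dnmt3b, and most of the germ cell sum was Dazl. Otx2 of the epiblast list was higher after knockdown and Prdm14 of the germ cell list lower, each without overlap. The shares over all tested genes were 22.3% and 21.3%, and edgeR and DESeq2 called neither gene. The part of these cell types in the results below was not tested. In bulk RNA, fewer cells of a type and less RNA per cell cannot be told apart.

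Sequences bear on the study's question about miR-7, which represses transcripts that pair with its seed. Below are its mature forms in RefSeq (GRCm38.p6), with the seed, bases 2 to 8, in capitals, and the one matching site that a search of the members and 3 core factors returned.
mmu-miR-7a-5p: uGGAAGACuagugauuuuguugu
mmu-miR-7b-5p: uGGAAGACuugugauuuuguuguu
Nanog 3′ UTR site: ggttccttcctTCTTCCAaatattttcat
Both forms have the same seed, which pairs with GTCTTCC. The string TCTTCCA pairs with all of the seed but its last base, with an A opposite the base before the seed. Neither letter string was found in the annotated 3′ UTR of any of the 8 members, which ran from 122 bases in Utf1 to 1012 bases in Dppa2. Of 19477 3′ UTRs searched in the same way, 22.8% held at least 1 of the strings. That share was not matched for length, and a longer 3′ UTR has more places for a match. Nanog, which lies near Dppa3, held TCTTCCA, in capitals above, at base 52 of its 3′ UTR (GRCm38, chr6:122713596-122713624, plus strand). A match is a string of letters and not a shown site, and the absence of a match says only that these letters are not in these windows.

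**Figure D1:**
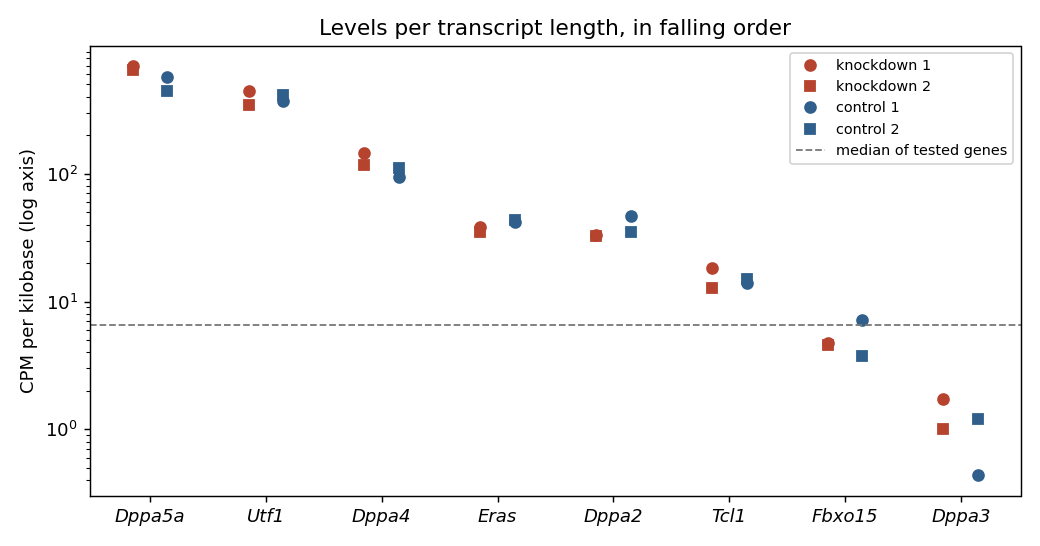
Levels of the 8 genes in CPM per kilobase of transcript (vertical log axis) in each library, knockdown in red to the left of control in blue, with genes in falling order of their mean. The dashed line is the median of tested genes, 6.52 CPM per kilobase. Fbxo15 and Dppa3 lie around or below it and the other 6 above it.

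The members spanned a 536-fold range of levels per transcript length. The next values are means over the 4 libraries in CPM per kilobase, a scale on which genes can be set beside each other. Dppa5a, at 586, and Utf1, at 393, were the most abundant, above 99.2% and 98.9% of tested genes. Dppa4 followed at 116, above 95.9%. Eras at 39.6 and Dppa2 at 36.7 came next, and this was the one pair of neighbours in the order whose libraries overlapped, with Dppa2 above Eras in control library 1 alone. Tcl1 had 14.9, Fbxo15 had 5.06 and Dppa3 had 1.09, which is above 20.2% of tested genes. The rest of the order was the same in each of the 4 libraries. Partners in 1 complex thus differed in transcript level: per kilobase, Dppa4 stood above Dppa2 in every library, at 144 and 118 against 32.9 and 32.4 after knockdown, and at 93.5 and 110.0 against 46.8 and 34.8 in the controls. These levels leave out reads without a unique alignment, which matters for members with near copies in the genome, as given below.

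**Figure D2:**
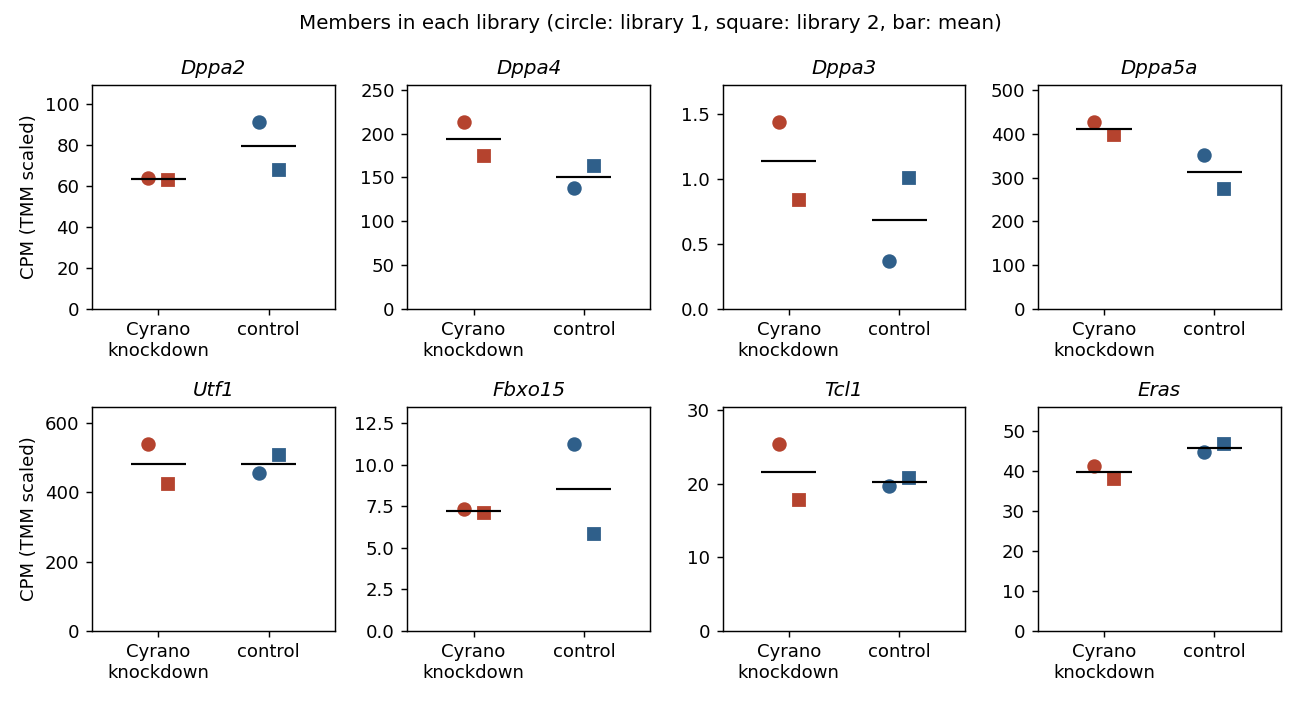
Level of each member in CPM (vertical axis from 0) in the 2 knockdown libraries (red, left) and the 2 control libraries (blue, right), with the mean as a bar. Dppa4 and Dppa5a are higher in both knockdown libraries and Dppa2 and Eras lower in both, while the groups overlap for the other 4.

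None of the 8 members passed the test over all genes. All 8 passed the filter on low counts, and at an adjusted p under 0.05 edgeR's quasi-likelihood test called none of them, where it called 0.0833% of the 13199 genes tested (0.0379% higher and 0.0455% lower). DESeq2, which called 1.36% of the genes it gave an adjusted p, and limma-voom, which called 0.0227%, also called none of the 8. At an unadjusted edgeR p under 0.05, without the offset described below, there were 2 members, both higher after knockdown. Over all tested genes, 6.18% were higher at that level, 5.43% lower and 11.6% either. The groups did not overlap in 4 members, 2 higher and 2 lower, and over all tested genes this held for 22.3% and 21.3%, or 43.5% in either direction. The median log2 fold change of the 8 was 0.05, beside -0.0016 over all tested genes. The members' log2 fold changes ran from -0.32 for Dppa2 to 0.71 for Dppa3, the member with the fewest reads.

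Dppa5a and Dppa4 had the lowest p values among the members in the test without the length and GC offset described below. Dppa5a had 427 and 398 CPM in the knockdown libraries against 352 and 274 CPM in the controls, from 9535, 8558, 5781 and 5171 reads. Both knockdown libraries lay above both controls. The controls differed from each other by more than the lower knockdown library differed from the higher control. The means were 412 ± 20.9 CPM with the Cyrano hairpin and 313 ± 55.03 CPM with the non-targeting one (SD, n = 2 each), a log2 fold change of 0.40 ± 0.16 (SE) with a 95% interval of 0.06 to 0.74. The edgeR p was 0.0242 before adjustment and 0.350 after it. Without control library 2 the log2 fold change was 0.23. Dppa5a has a short transcript of 619 bases, and 86.4% of its length is at least 95% identical, over 50 bases or more, to annotated transcripts of other genes, among them the pseudogene Dppa5b and Dppa5c. Reads that aligned to no single place made up 28.7% and 26.1% of the knockdown libraries and 32.8% and 30.2% of the controls. The part of such reads in the Dppa5a values was not tested.

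Dppa4 had 213 and 174 CPM after knockdown against 138 and 163 CPM in the controls. The lower knockdown library lay close above the higher control. The means were 194 ± 27.4 CPM and 150.5 ± 17.2 CPM (SD, n = 2 each), and the log2 fold change was 0.36 ± 0.16 with an interval of 0.03 to 0.70. The edgeR p was 0.0369 before adjustment and 0.387 after it. Without knockdown library 1 the log2 fold change was 0.20. Dppa2, the gene next to Dppa4 on chromosome 16 and its partner, had 64.1 and 63.0 CPM after knockdown against 91.2 and 67.7 CPM in the controls. Its knockdown libraries were nearly alike and its controls were not, and the wider gap was to control library 1. The means were 63.6 ± 0.782 CPM and 79.5 ± 16.6 CPM (SD, n = 2 each), and the log2 fold change was -0.32 ± 0.17 with an interval of -0.69 to 0.05. The edgeR p was 0.0817 before adjustment and 0.494 after it. Without control library 1 the log2 fold change of Dppa2 was -0.09.

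The ratio of Dppa2 to Dppa4 reads, each as CPM, was 0.301 and 0.362 in the knockdown libraries against 0.660 and 0.417 in the controls. Both knockdown ratios lay below both control ratios, with control library 1 apart from the rest. On the log2 scale the means were -1.60 and -0.93, a difference of -0.67. The exact permutation test, two-sided, could not go below p = 0.333 with 2 libraries against 2, and that was its value. Both genes have annotated near copies, of which processed pseudogenes cover 46.5% of the length of Dppa2 and 49.8% of that of Dppa4 at the identity given above.

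Dppa3 was barely detected. It had 32 and 18 reads in the knockdown libraries and 6 and 19 in the controls, or 1.43 and 0.836 CPM against 0.365 and 1.01 CPM. The groups overlapped, and the interval of its log2 fold change of 0.71 ± 0.72 ran from -0.85 to 2.26, so a difference of either sign was within the error at this depth (edgeR adjusted p = 0.746). It was 0.17 without control library 1 and 1.619 without control library 2. DESeq2 gave it no adjusted p. Annotated pseudogenes, Dppa3-ps among them, are near copies of 54.1% of its length. Gdf3, the TGF-beta family ligand gene just before it on chromosome 6, had 149.6 and 109 CPM after knockdown against 122 and 118 CPM in the controls. Nanog, the next listed gene after it, had 129 and 133 CPM against 216 and 228 CPM, which is -0.76 ± 0.14 on the log2 scale (edgeR adjusted p = 0.0696). With the offset for length and GC content, described below, it was -0.87 ± 0.12 and was called (edgeR adjusted p = 0.0424), and DESeq2 called it too.

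Utf1 differed least between the groups. It had 540.4 and 426 CPM in the knockdown libraries against 456 and 508 CPM in the controls, and the control values lay between the knockdown values. The means were 483 ± 81.1 CPM and 482 ± 36.3 CPM (SD, n = 2 each), and the interval of the log2 fold change of 0.003 ± 0.16 ran from -0.34 to 0.34, which leaves room for a change of that size in either direction (edgeR adjusted p = 0.997). Its direction was the same in 7 of 16 alternatives. Tcl1 had 25.4 and 17.8 CPM after knockdown against 19.6 and 20.8 CPM in the controls, with the controls again between the knockdown libraries (log2 fold change 0.09 ± 0.22, edgeR adjusted p = 0.914). Without knockdown library 1 the Tcl1 value was -0.20. Over the 4 libraries, the pattern of Tcl1 was nearer to that of Utf1 than to any other member's.

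Eras had a small difference that was even across libraries. It had 41.3 and 38.0 CPM after knockdown against 44.8 and 46.7 CPM in the controls, and both knockdown libraries lay below both controls. The means were 39.6 ± 2.34 CPM and 45.8 ± 1.33 CPM (SD, n = 2 each). The log2 fold change of -0.21 ± 0.17 had an interval of -0.57 to 0.15 (edgeR adjusted p = 0.662). Of the exons of Eras, 135 bases overlap those of Pcsk1n on the opposite strand, and the sources used here do not give the strand setting of the counting. Fbxo15 had 7.35 and 7.11 CPM after knockdown against 11.2 and 5.83 CPM in the controls, and both knockdown values lay between the controls. Its log2 fold change was -0.24 ± 0.33, with an interval of -0.95 to 0.48 (edgeR adjusted p = 0.826), and it was 0.31 without control library 1. Utf1, Fbxo15, Tcl1 and Eras have no annotated near copy by the same measure.

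**Figure D3:**
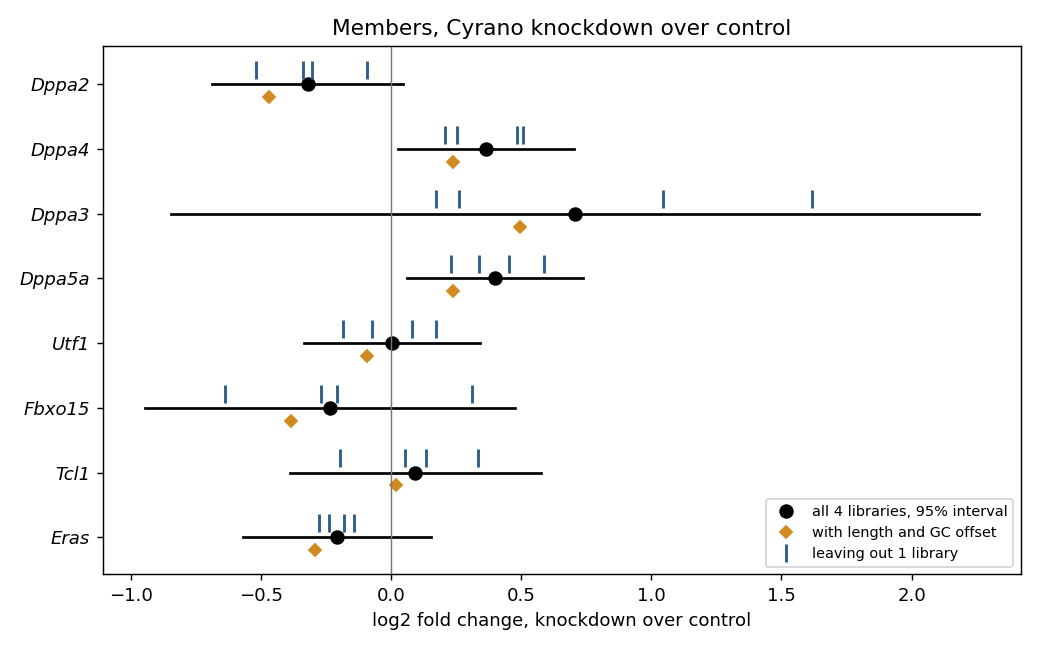
Log2 fold change, knockdown over control, of each member with its 95% interval (black), with length and GC content offset (orange diamonds), and with each library left out in turn (blue ticks). The intervals of Dppa4 and Dppa5a, before adjustment over genes, lie above 0, and those of the other 6 include it.

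Transcript length moved with the fold changes. Tested genes were put into 5 groups of equal size from short to long transcripts. Their median log2 fold change stood at 0.13 in the shortest, which held 7 of the 8 members, 0.05 in the next, which held Dppa2, and -0.14 in the longest. With an offset for length and GC content, the log2 fold change was 0.24 ± 0.14 for both Dppa5a and Dppa4 (edgeR adjusted p = 0.553 and 0.541), so these values were smaller by more than 1.5 times. It was -0.47 ± 0.15 for Dppa2 (adjusted p = 0.258) and -0.30 ± 0.14 for Eras (adjusted p = 0.448). The order by p changed with the offset. Before adjustment, the edgeR p was 0.0093 for Dppa2, 0.0629 for Eras, 0.122 for Dppa4 and 0.13 for Dppa5a. Dppa2, lower after knockdown, was then the only member under 0.05. The median of the 8 members was -0.04 with the offset. No member was called with it.

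Promoters of 3 members were matched, Utf1, Tcl1 and Eras, which include the pair with the most alike profiles, Utf1 and Tcl1. Each run below is 300 bases from RefSeq (GRCm38.p6), 250 before the annotated start and 50 after it, with matches to the searched strings in capitals.
Utf1, chr7:139943606-139943905, plus strand: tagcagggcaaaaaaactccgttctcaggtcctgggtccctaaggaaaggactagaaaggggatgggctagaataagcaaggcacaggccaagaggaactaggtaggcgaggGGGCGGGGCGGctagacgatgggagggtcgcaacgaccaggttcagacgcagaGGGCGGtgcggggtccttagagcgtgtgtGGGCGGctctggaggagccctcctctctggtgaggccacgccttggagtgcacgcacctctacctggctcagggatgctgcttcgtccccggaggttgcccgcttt
Tcl1, chr12:105222688-105222987, minus strand: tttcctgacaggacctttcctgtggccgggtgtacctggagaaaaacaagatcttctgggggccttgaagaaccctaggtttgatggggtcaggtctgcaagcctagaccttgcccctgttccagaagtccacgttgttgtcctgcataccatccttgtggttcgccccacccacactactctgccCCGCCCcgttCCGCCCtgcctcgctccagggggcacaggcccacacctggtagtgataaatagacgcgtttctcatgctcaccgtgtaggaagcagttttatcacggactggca
Eras, chrX:7928558-7928857, minus strand: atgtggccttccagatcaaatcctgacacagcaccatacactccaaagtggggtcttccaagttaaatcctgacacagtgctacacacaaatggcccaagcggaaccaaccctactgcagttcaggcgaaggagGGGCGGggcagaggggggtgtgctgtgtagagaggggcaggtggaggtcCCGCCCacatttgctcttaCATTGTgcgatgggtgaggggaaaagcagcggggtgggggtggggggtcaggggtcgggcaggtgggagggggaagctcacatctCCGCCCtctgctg
The octamer ATTTGCAT, the sequence that OCT4 and its relatives bind, and CATTGT, a core that SOX proteins bind, were searched on both strands. The octamer was in none of the 3 windows and in 1.74% of the 32851 promoters in the table. CATTGT stood once, 48 bases before the start of Eras, and was in 12.6% of promoters. The GC box GGGCGG, a string added after the sequences were seen, stood 4 times in Utf1, the first 2 overlapping, 2 times in Tcl1 and 3 times in Eras, and was in 35.7% of promoters. The windows had 62.0%, 56.7% and 60.0% G and C in Utf1, Tcl1 and Eras, where the median promoter had 52.7%. The known OCT4 and SOX2 sites of Utf1 and Fbxo15 lie in enhancers outside such windows.

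**Figure D4:**
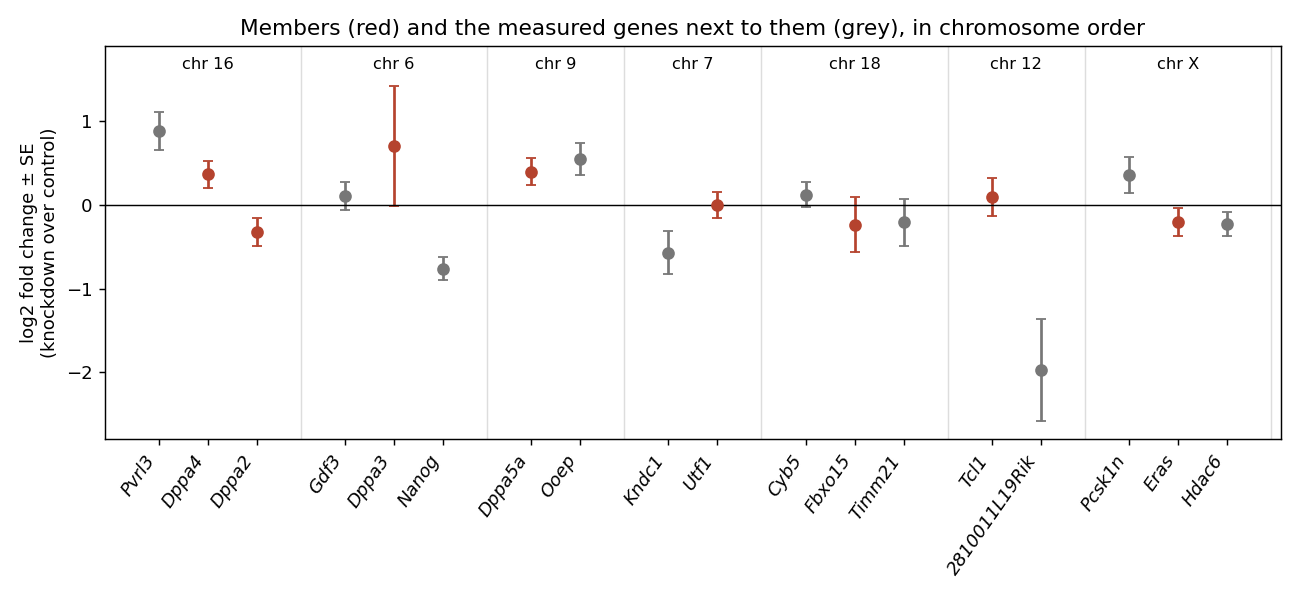
Log2 fold change, knockdown over control, with its SE (vertical axis), of the members (red) and of the nearest listed and tested genes beside them (grey), in chromosome order by locus. Dppa4 and Dppa2 point in opposite directions, Nanog lies well below Gdf3, and Dppa5a and Ooep both lie above 0.

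Of the tested genes beside the members, meaning the nearest listed on each side, edgeR without the offset called none. Unlisted annotated genes lay between some pairs: 11 between Pvrl3 and Dppa4, 4 between Dppa3 and Nanog, 2 between Utf1 and Mir202 and 1 between Cyb5 and Fbxo15. Ooep, an oocyte KH domain gene next to Dppa5a on chromosome 9, had 33.5 and 27.7 CPM after knockdown against 19.9 and 21.9 CPM in the controls, and both knockdown libraries lay above both controls (log2 fold change 0.55 ± 0.20, edgeR adjusted p = 0.306). Pvrl3, a nectin adhesion gene and the nearest listed gene before Dppa4, had 17.8 and 17.4 CPM against 10.2 and 8.95 CPM (0.88 ± 0.23, adjusted p = 0.179). The noncoding RNA gene 2810011L19Rik, now called Tunar, is next to Tcl1 and had 0.582 and 0.418 CPM after knockdown against 2.01 and 1.96 CPM in the controls (-1.97 ± 0.61, adjusted p = 0.236). Kndc1, next to Utf1, had 8.56 and 7.29 CPM against 12.8 and 10.7 CPM (-0.57 ± 0.26, adjusted p = 0.428). Pcsk1n, whose exons overlap those of Eras, had 29.6 and 26.8 CPM after knockdown against 18.2 and 25.7 CPM in the controls, and its value of 0.36 ± 0.21 had the opposite sign to that of Eras (adjusted p = 0.544). Hdac6 beside Eras, with Cyb5 and Timm21 beside Fbxo15, had log2 fold changes of -0.23, 0.12 and -0.21. The neighbours Gm5485, Gsta2, Mir202 and Tcl1b4 had no read in any library. The sign of a neighbour matched that of its member for some loci and not for others.

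The 8 members belong to the 24 candidate genes from which the first reprogramming factors were found, and the other 16 were all listed in the files. Of the 15 tested, 9 had a log2 fold change above 0 and 6 below, with a median of 0.06. EdgeR and limma-voom called none, and Nanog was called by DESeq2 and by edgeR with the offset. At an unadjusted edgeR p under 0.05 there were 2 higher and 1 lower, where the shares over all tested genes were 6.18% and 5.43%. The lower one was Nanog, given above. Khdc3, an oocyte KH domain gene, had 84.2 and 82.1 CPM after knockdown against 69.9 and 41.3 CPM in the controls (0.58 ± 0.22, edgeR adjusted p = 0.337). Tdrd12, a piRNA pathway gene, had 6.81 and 7.85 CPM against 5.23 and 3.60 CPM (0.73 ± 0.32, adjusted p = 0.404). Pou5f1, which encodes OCT4, had a log2 fold change of -0.09 ± 0.14 and Sox2 one of 0.18 ± 0.14. Fthl17 had 3 reads in knockdown library 1 and none elsewhere, and was not tested.

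**Figure D5:**
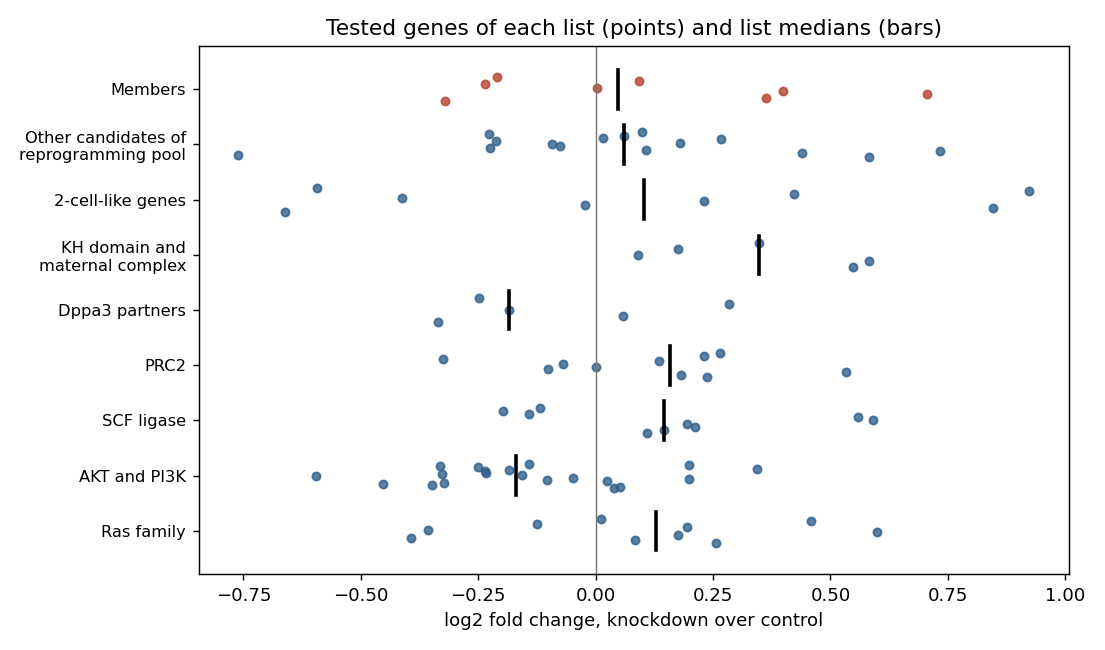
Log2 fold change, knockdown over control, of the tested genes of each list (points) with the list's median (bar), members at the top. Medians run from -0.19 for Dppa3 partners to 0.35 for KH domain and maternal complex genes, and no point was called by edgeR without the length and GC offset.

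Genes linked to single members were called in none of these lists by edgeR, without the offset, or limma-voom. For Dppa5a, 11 genes of KH domain proteins and of the subcortical maternal complex, which oocytes need, were listed. Khdc1a, Khdc1b and Khdc1c had no read in any library, where a count of 0 allows up to 0.134 and 0.139 CPM in the knockdown libraries and 0.183 and 0.159 CPM in the controls (3 reads, counting error only). The 5 tested had log2 fold changes above 0, as did 49.8% of all tested genes, with a median of 0.35. Of these, 2, Ooep and Khdc3, had an unadjusted edgeR p under 0.05, where 6.18% of all tested genes were higher at that level. The groups did not overlap in 3 of the 5, all higher, at a share over all genes of 22.3%. The level of Zbed3, the next by p, was 35.4 and 38.9 CPM against 23.6 and 34.7 CPM (0.35 ± 0.21). Nlrp4f and Tle6, the rest of the 5, had log2 fold changes of 0.17 ± 0.39 and 0.09 ± 0.36, and their groups overlapped.

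Genes of the 2-cell state, which Dppa2 and Dppa4 help to activate, were low, with none above 8.58 CPM in any library. Of 20 listed, 4 had no read and 8 were tested, of which 4 lay above 0 and 4 below. Summed over the list, the level was 25.9 and 23.8 CPM in the knockdown libraries against 23.2 and 25.9 CPM in the controls, and the groups overlapped. Sp110 and Zfp750 made up a large part of this sum. Sp110 had the lowest p, with 5.60 and 7.25 CPM against 2.07 and 4.66 CPM (0.92 ± 0.40, edgeR adjusted p = 0.392). Zfp750, the next by p, had 6.58 and 4.13 CPM against 8.58 and 7.63 CPM (-0.59 ± 0.32, adjusted p = 0.497). Zscan4c had 2.10 and 3.30 CPM against 0.912 and 2.07 CPM, whereas Zscan4a had 0.493 and 0.604 CPM against 0.730 and 1.01 CPM. The groups did not overlap in these 4 of the 8 tested genes, 2 higher and 2 lower after knockdown. The shares over all tested genes were 22.3% and 21.3%. Counts of single Zscan4 genes are uncertain, since the copies are nearly alike. Partners of Dppa3 in DNA methylation included Uhrf1, which had 332 and 275 CPM after knockdown against 412 and 354 CPM in the controls (-0.34 ± 0.15, edgeR adjusted p = 0.428). Dnmt1, the maintenance methyltransferase gene, had 437 and 332 CPM against 472 and 403 CPM, and its groups overlapped.

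For Utf1, the 10 genes of the Polycomb complex PRC2 had a median log2 fold change of 0.16, with the groups apart in 8 of them, 6 higher and 2 lower, where the shares over all genes were 22.3% and 21.3%. The lower ones, Suz12 and Phf19, had log2 fold changes of -0.10 and -0.32. The lowest p was that of Eed, which encodes the subunit that reads H3K27 methylation, with 506 and 401 CPM against 308 and 319 CPM (0.53 ± 0.15, edgeR adjusted p = 0.199). The catalytic subunit gene Ezh2 had a log2 fold change of 0.24 ± 0.14. For Fbxo15, 9 genes of SCF ubiquitin ligases had a median of 0.15. Cand1, which exchanges F-box proteins on the complex, had 624 and 641 CPM after knockdown against 473 and 366 CPM in the controls (0.59 ± 0.16, edgeR adjusted p = 0.181), and was the 1 gene of the list that DESeq2 called. Skp2, another F-box gene, had 112 and 101 CPM against 77.8 and 66.6 CPM (0.56 ± 0.15, adjusted p = 0.183). The scaffold genes Skp1a and Cul1 had log2 fold changes of 0.11 and 0.15, and their groups overlapped.

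For Tcl1 and Eras, 20 genes of the AKT and PI3 kinase pathway had a median log2 fold change of -0.17. It was -0.02 with the offset for length and GC content. Without the offset 6 lay above 0 and 14 below, where 49.8% of all tested genes lay above 0. Pdpk1, the kinase gene upstream of AKT, had 47.4 and 47.8 CPM after knockdown against 71.6 and 58.8 CPM in the controls (-0.45 ± 0.16, edgeR adjusted p = 0.315). Foxo3, a transcription factor that AKT holds out of the nucleus, had 66.1 and 69.0 CPM against 79.6 and 90.5 CPM (-0.33 ± 0.15, adjusted p = 0.422). The AKT genes Akt1 and Akt2 had log2 fold changes of 0.04 and 0.05. The relatives of Tcl1 named Tcl1b1 to Tcl1b5 had no read in any library, nor did Dppa1. Among 10 relatives of Eras in the Ras family, Rras2 had 46.9 and 54.8 CPM after knockdown against 32.8 and 34.2 CPM in the controls (0.60 ± 0.17, edgeR adjusted p = 0.199). Rap1a had a log2 fold change of 0.46 ± 0.17 and Mras one of -0.36 ± 0.15, whereas Hras1 had 0.08 ± 0.16.

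Genes with nearly the same profile over the 4 libraries were found for 7 of the 8 members. Likeness was measured as the distance between log2 CPM values, each centred on its mean over the libraries, over 8373 other genes with a mean of at least 10 CPM. The nearest gene to Dppa2 was Fem1b, at a distance of 0.017, where the median gene was at 0.53. The nearest to Dppa4 was Drg2 at 0.011, to Dppa5a Polr3f at 0.043, to Utf1 Cryz at 0.040, to Fbxo15 Epm2aip1 at 0.035, to Tcl1 Rrbp1 at 0.030 and to Eras Tmem97 at 0.013. Drg2 had 162 and 132 CPM after knockdown against 105 and 123 CPM in the controls, almost the profile of Dppa4. For Dppa3, which had few reads, the nearest was Cdkn2a at 0.555. Among members, the closest pair was Utf1 and Tcl1 at 0.151, and Dppa2 was nearest to Eras at 0.364. The smallest of 8373 distances lies below their median by construction, and with 4 libraries close profiles can arise without any link between genes. Such distances describe these profiles only.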

How the data were processed

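Each library has 1 deposited file of whole-number read counts by gene symbol, not normalized. TopHat, SAMtools, bedtools and HTSeq, with build mm9, are named in the submitters' processing notes. The sources used here do not give versions, annotation or strand setting. Closing tallies that name no gene held 36.1% and 33.1% of tallied reads in the knockdown libraries and 40.8% and 37.1% in the controls, and were left out. Genes were kept by filterByExpr (minimum count 10), scaled by TMM and tested with edgeR 4.0.16 in R 4.3.3 (glmQLFit, robust, glmQLFTest, group as the only term), two-sided, with Benjamini-Hochberg adjustment over 13199 genes. The code was tested on simulated data, which had a smaller spread between libraries than these and no length, GC or replicate effect. That test covers the code and not the results here. DESeq2 1.42.0 and limma 3.58.1 were alternatives. A standard error is the size of the log2 fold change divided by the root of its F statistic. Replicates differed beyond sampling noise, with a chi-square over its degrees of freedom of 20.5 between the knockdown libraries and 25.4 between the controls.

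The deposited build, mm9, is not that of the reference. GENCODE M21 (GRCm38) gave transcript lengths, GC content and 3′ UTRs by symbol, with lengths for 98.5% of symbols, from the longest transcript with a RefSeq match. The 3′ UTR was the longest among such coding transcripts, or among all coding transcripts where those had none (Fbxo15), so for Dppa4 and Fbxo15 it is from another transcript than the length. The 3′ UTR and promoter coordinates are GRCm38. Near copies were found with blastn 2.17.0, a search added after the data were seen, as was the GC box. A planned comparison of protein sequences was not run. Floors of 3 reads cover counting error only. RefSeq (GRCm38.p6) gave miRNA and promoter sequences and the order of genes.

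The members and lists were chosen with earlier results of these data known. Genes named were all members, Cyrano, Nanog, Pou5f1, Sox2 and Rn45s, the nearest listed neighbours, genes among the 4 of lowest p in each list, and those of nearest profile. Not every gene the rule allows is named. Fthl17, Suz12, Phf19, Skp1a, Cul1, Akt1, Akt2 and Hras1 were named after their values were seen, for their role, and Tle6 to complete its list.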

Additional observations from a re-analysis of the deposited data

How the results depend on the processing

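With 2 libraries a group, differences of the size seen in the members lie near the spread between libraries. Of the 8 members, none was called in any of 14 alternatives that had no replicate block, and Dppa2, Dppa4, Dppa3, Dppa5a and Eras kept their direction in each alternative that gave a value. Dppa3 gave none with a minimum of 1 CPM in 2 libraries. The replicate numbers come from the titles, and nothing in the labels says that they mark a shared batch. Deviations of same-numbered libraries correlated at 0.244 across genes. With the replicate block, 955 genes were called and 1 member, Dppa5a (0.41, edgeR adjusted p = 0.0299, where its alternatives ran from 0.0299 to 0.647). With the replicate block and the length and GC offset, 870 genes were called and 1 member, Dppa2 (-0.46, adjusted p = 0.0156, where its alternatives ran from 0.0156 to 0.959), and Tcl1 was at -0.005. The cause was not tested.

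Over all genes, 11 were called. The count was 6 with the 1 CPM filter as with RLE factors, 26 with upper-quartile factors, 50 with library size only, 332 with no filter, 133 by DESeq2, 3 by limma-voom, 4 without robust estimation and 7 with the length and GC offset. It ran from 0 without control library 2 to 191 without knockdown library 1, and was 1 without control library 1 and 49 without knockdown library 2. Utf1, near 0 throughout, was at -0.019 with upper-quartile factors, -0.001 by DESeq2, -0.005 by limma-voom and with the replicate block, -0.003 without Rn45s and Lars2, -0.094 with the offset and -0.097 with both. Leaving out 1 library moved it from -0.186 to 0.17, Tcl1 from -0.196 to 0.333, Fbxo15 from -0.641 to 0.31, Dppa2 from -0.522 to -0.092, Dppa4 from 0.205 to 0.506, Dppa5a from 0.228 to 0.589, Dppa3 from 0.173 to 1.619 and Eras from -0.277 to -0.145.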
